A study of Mus musculus with 4 samples.

Results

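The 7 genes described here, regulators of SREBP processing and of the LDL receptor in mouse liver, were taken by symbol from the 35739 genes of the salmon table, and all 7 were found. They are *Srebf1* and *Srebf2*, which encode the SREBPs, *Scap*, *Insig1* and *Insig2*, which encode the sensing machinery, *Mylip*, and *Stard4*, which encodes a cytosolic sterol carrier. Cells of the liver hold their cholesterol level by sensing sterols in the membrane of the endoplasmic reticulum. The sterol regulatory element-binding proteins (SREBPs) are transcription factors made as membrane-bound precursors, which SCAP escorts to the Golgi for cleavage when sterols are low and which the INSIG proteins hold back when sterols are high. The released factor turns on genes of sterol and fatty acid synthesis and of LDL uptake, while the ubiquitin ligase encoded by *Mylip* marks the LDL receptor for degradation.

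RNA-seq was performed on livers of WT mice (replicates 2 and 3) and of *Usp21* KO mice (replicates 1 and 3), with 2 libraries per genotype. The mice were littermates of 10 to 11 weeks on a normal diet. The KO mice carried a constitutive deletion of exons 3 and 4 of *Usp21*, which encodes a ubiquitin-specific protease, made in 129/Sv embryonic stem cells, excised with a Cre line that the methods do not name, and kept on a mixed C57BL/6 and 129/Sv background. The hour of collection and the time since feeding are not given in the sources used here. The labels number the mice but do not say more on how libraries relate to animals, so p-values measure only the spread between these libraries. Salmon abundances are given as TPM, a unit of transcript abundance that is corrected for transcript length, so levels can be set side by side between genes. Each gene was tested with limma on log2(TPM + 1), two-sided, and p-values were adjusted by Benjamini-Hochberg over the 9581 genes that averaged 1 TPM or more, a filter that all 7 members passed. All differences below are *Usp21* KO minus WT on that log2 scale, which understates the change of a gene with few TPM.

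The targeted gene *Usp21* measured 4.07 TPM in WT replicate 2, 6.29 TPM in WT replicate 3, 1.64 TPM in KO replicate 1 and 2.93 TPM in KO replicate 3, and values below keep this order. The transcript was lower in both KO libraries but not absent (log2 difference -0.92, adjusted p = 0.464 from limma), and the values per gene include exons outside the deleted part. The hepatocyte markers, with *Alb* at their head, summed to between 62870 and 90058 TPM in the 4 libraries, and 0 of the 10 were at 0. The median difference of all tested genes was 0.15, and it was 0.04 when the libraries were scaled to an equal upper quartile, so a difference of a single gene is to be read against that shift.

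The promoters of 4 members (for *Srebf1* the 2 starts nearest the 5′ end, for *Insig2* the first of 3) are shown because these genes encode the SREBPs and both INSIG proteins, whose transcripts are compared in what follows. RefSeq promoters (GRCm38.p6, from 250 bases before to 50 bases after an annotated start) were found for 6 of the 7 genes, with 11 starts in all, and *Stard4* had no entry. *Srebf1* and *Insig2* each have 3 annotated starts, and since the TPM are summed per gene, they do not tell which start was used. The windows shown for these genes may therefore leave out the start used in liver. Capitals mark matches, on either strand, to TCACNCCA (a core of the sterol regulatory element that SREBPs bind), CCAAT (the box bound by NF-Y, a partner of SREBP) and CACGTG (an E-box). In these windows no match overlapped another. Each sequence is given 5′ to 3′ on the strand of its gene.
*Srebf1*, its start farthest to the 5′ end of the gene, chr11:60222532-60222831, reverse strand: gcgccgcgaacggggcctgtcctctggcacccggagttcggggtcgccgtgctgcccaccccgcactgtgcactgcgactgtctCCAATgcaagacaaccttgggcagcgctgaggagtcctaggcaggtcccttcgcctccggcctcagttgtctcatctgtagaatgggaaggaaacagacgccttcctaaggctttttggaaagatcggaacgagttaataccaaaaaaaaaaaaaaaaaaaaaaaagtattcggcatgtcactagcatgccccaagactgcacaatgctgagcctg
*Srebf1*, its next start, chr11:60220578-60220877, reverse strand: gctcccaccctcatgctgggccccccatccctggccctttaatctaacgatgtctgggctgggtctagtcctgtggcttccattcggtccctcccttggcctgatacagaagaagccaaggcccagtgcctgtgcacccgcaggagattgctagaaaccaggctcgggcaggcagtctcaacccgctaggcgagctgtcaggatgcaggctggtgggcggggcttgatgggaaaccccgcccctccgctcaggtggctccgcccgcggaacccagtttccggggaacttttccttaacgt
*Srebf2*, chr15:82147019-82147318, forward strand: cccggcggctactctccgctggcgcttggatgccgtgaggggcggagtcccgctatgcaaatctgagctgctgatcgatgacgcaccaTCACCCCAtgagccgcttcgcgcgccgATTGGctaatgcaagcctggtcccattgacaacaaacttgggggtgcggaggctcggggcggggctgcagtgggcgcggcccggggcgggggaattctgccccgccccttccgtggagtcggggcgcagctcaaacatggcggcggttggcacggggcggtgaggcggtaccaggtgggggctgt
*Insig1*, chr5:28071162-28071461, forward strand: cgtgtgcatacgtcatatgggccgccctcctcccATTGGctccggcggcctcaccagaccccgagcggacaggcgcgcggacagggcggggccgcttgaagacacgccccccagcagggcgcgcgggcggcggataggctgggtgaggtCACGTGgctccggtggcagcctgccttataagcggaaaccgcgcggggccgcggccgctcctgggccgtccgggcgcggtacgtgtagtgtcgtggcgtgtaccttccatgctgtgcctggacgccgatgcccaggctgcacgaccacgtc
*Insig2*, its start farthest to the 5′ end of the gene, chr1:121332540-121332839, reverse strand: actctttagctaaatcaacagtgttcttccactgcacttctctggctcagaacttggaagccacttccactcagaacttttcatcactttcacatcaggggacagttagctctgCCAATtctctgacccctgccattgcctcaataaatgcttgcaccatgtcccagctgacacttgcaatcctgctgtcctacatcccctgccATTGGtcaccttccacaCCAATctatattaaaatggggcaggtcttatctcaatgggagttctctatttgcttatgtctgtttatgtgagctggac

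*Srebf2* was the 1 member with a match to TCACNCCA, which began 162 bases before the start (at -162), with an inverted NF-Y box at -135. Among all 32851 promoters of the table, 4.36% held TCACNCCA, 37.4% the NF-Y box and 7.15% the E-box. The NF-Y box was found in 6 of the 11 member promoters, *Mylip* and the *Insig2* promoter shown having 3 matches each. The E-box was found in *Insig1*, at -101, and at 1 site in *Scap*, which lies in both of its overlapping windows. Of the starts not shown, the third of *Srebf1*, farthest to the 3′ end, had an NF-Y box at -30, and the other 2 of *Insig2* had no match. These matches are descriptions of the letters in a window and not of bound sites. Only exact matches were searched for, so a window without a match, shown or not, may still hold a sterol regulatory element with other letters.

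*Srebf1* (ENSMUSG00000020538, chromosome 11, 60199089 to 60222581 on GRCm38), the gene of SREBP-1a and SREBP-1c, of which SREBP-1c drives fatty acid synthesis in liver, measured 58.1 and 64.3 TPM in WT, against 27.3 and 20.7 TPM in KO. Neither KO library reached the lower WT library, and the gap between the genotypes was wider than the spread within either. The means were 61.2 ± 4.38 TPM in WT and 24.0 ± 4.66 TPM in KO (SD, n = 2 per genotype), a ratio of 0.393. Its log2 difference of -1.32 (standard error 0.20, 95% interval -1.83 to -0.82) had an unadjusted p of 0.000808, rank 32 of the 9581 genes, and an adjusted p of 0.242 in limma, so it did not pass the threshold of 0.05. Leaving out any 1 library gave a difference between -1.51 and -1.13, and with upper quartile scaling it was -1.45. Without moderation of the variances across genes, which leaves the estimate to these 4 values alone, its unadjusted p was 0.0230 and its adjusted p 0.547. The values are per gene, so SREBP-1a and SREBP-1c transcripts were not separated. The annotated starts of *Srebf1* were not assigned to SREBP-1a or SREBP-1c either, and not all of them are shown above.

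*Srebf2* (ENSMUSG00000022463, chromosome 15, 82147181 to 82205379), the gene of SREBP-2, which drives the sterol synthesis enzymes and the LDL receptor, had 8.23 and 9.07 TPM in WT, against 7.31 and 6.69 TPM in KO. Both KO libraries were again the lower ones, but by a smaller margin. The log2 difference was -0.27 (standard error 0.21, 95% interval -0.79 to 0.25, adjusted p = 0.639 from limma), and -0.33 to -0.21 with a library left out.

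A ratio of 2 genes within a library does not depend on how libraries are scaled to each other. *Srebf1* was 7.06 and 7.09 times the level of *Srebf2* in the WT libraries, and 3.74 and 3.10 times in the KO libraries. The WT ratios were nearly equal, and both KO ratios were below them, with means of 7.07 ± 0.02 in WT and 3.42 ± 0.45 in KO (SD, n = 2). With 2 libraries against 2, an exact two-sided permutation test cannot give a p below 0.333. On the log2(TPM + 1) scale the difference in this ratio was -1.05, and between -1.19 and -0.92 with each library left out.

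**Figure D1:**
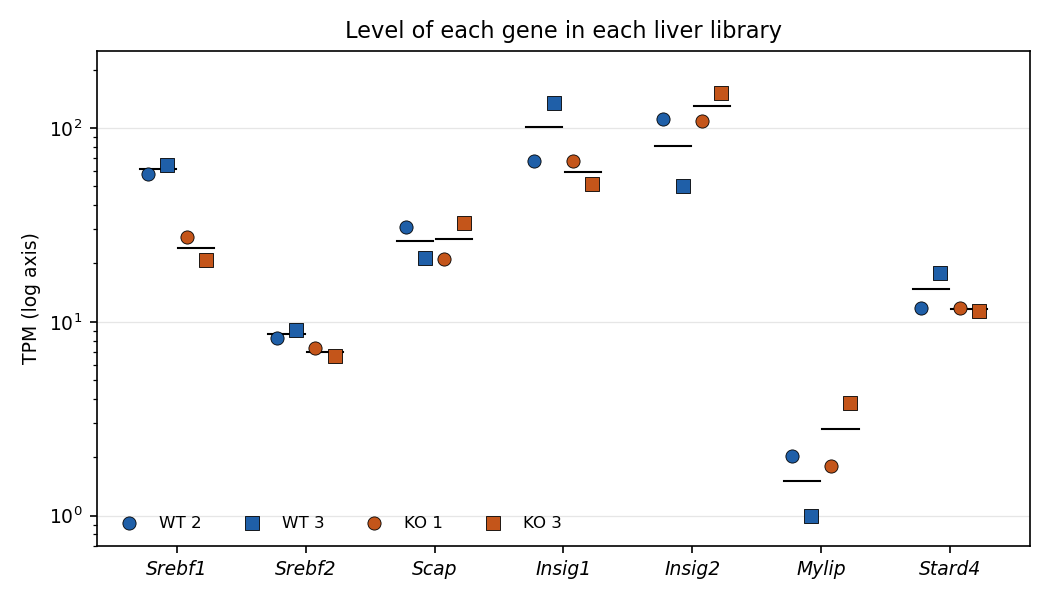
Level of each of the 7 genes (TPM, log axis) in the 2 WT libraries (blue) and the 2 *Usp21* KO libraries (orange), with circles and squares for the replicates and a bar at each group's mean. For *Srebf1* the WT points (58.1 and 64.3 TPM) stand apart from the KO points (27.3 and 20.7 TPM), while for *Insig1* and *Insig2* the square of WT replicate 3 lies away from the other 3 libraries.

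*Scap* (ENSMUSG00000032485, chromosome 9, 110333288 to 110384950) had 30.7 and 21.4 TPM in WT, against 21.1 and 32.3 TPM in KO. The libraries fell into a high and a low value in each genotype, and the groups overlapped. The log2 difference was 0.03 (standard error 0.29, 95% interval -0.68 to 0.74, adjusted p = 0.978 from limma), and its sign turned to -0.10 with upper quartile scaling, -0.22 without WT replicate 3 and -0.27 without KO replicate 3. No direction can be given for *Scap*, and a difference inside that interval cannot be told from none with these libraries.

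*Insig1* (ENSMUSG00000045294, chromosome 5, 28071363 to 28078662), itself a target of SREBPs, had 67.1 and 134 TPM in WT, against 67.7 and 51.2 TPM in KO. WT replicate 3 was the high library, and WT replicate 2 lay between the KO libraries. The log2 difference was -0.68 (standard error 0.35, 95% interval -1.56 to 0.20, adjusted p = 0.517 from limma). Leaving out WT replicate 2 gave -1.18 and leaving out WT replicate 3 gave -0.19, so that a single WT library carried most of it.

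*Insig2* (ENSMUSG00000003721, chromosome 1, 121304353 to 121332589), known in liver for a transcript that insulin represses, had 112 and 50.2 TPM in WT, against 109 and 151 TPM in KO. The order was the reverse of that of *Insig1*: WT replicate 3 was the low library, KO replicate 3 the high one, and WT replicate 2 and KO replicate 1 lay close together. Its log2 difference of 0.77 (standard error 0.40, 95% interval -0.22 to 1.75, adjusted p = 0.517 from limma) became 1.33 when WT replicate 2 was left out, and 0.20 when WT replicate 3 was. *Insig2* lies on the chromosome of *Usp21*, 49.9 Mb away from it.

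Within the libraries, *Insig2* was 1.66 and 0.374 times the level of *Insig1* in WT and 1.61 and 2.95 times in KO. In WT replicate 3 alone *Insig1* was the more abundant of the pair, and the genotypes overlapped. On the log2(TPM + 1) scale the difference in this ratio was 1.45, but 0.38 without WT replicate 3 and 2.51 without WT replicate 2. The ratio of *Insig2* to *Scap* did not overlap, with 3.64 and 2.35 in WT and 5.14 and 4.68 in KO, or 2.99 ± 0.91 and 4.91 ± 0.33 (SD, n = 2), and its log2 difference of 0.74 was 0.42 with WT replicate 3 left out. *Srebf1* was 1.89 and 3.01 times the level of *Scap* in WT and 1.29 and 0.643 times in KO, again without overlap, with a log2 difference of -1.35 that was -0.87 with KO replicate 3 left out. The ratio of *Mylip* to *Stard4* overlapped, from 0.0560 to 0.172 in WT and from 0.154 to 0.335 in KO, and its log2 difference of 0.88 went from 0.30 (WT replicate 3 left out) to 1.46 (WT replicate 2 left out). For each of the 5 ratios the smallest p of an exact permutation test is 0.333, and the pairs were chosen with earlier results known.

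**Figure D2:**
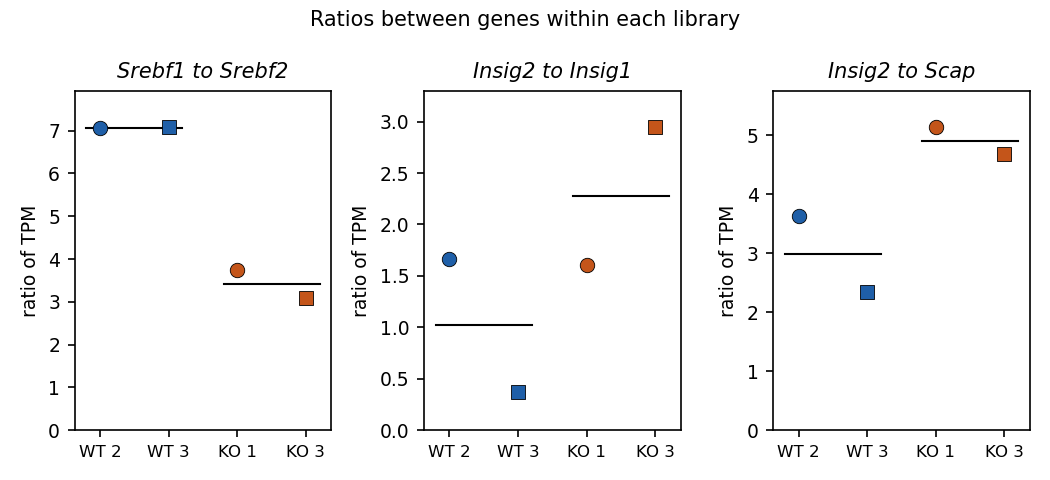
Ratio of the TPM of 2 genes within each library (axes from 0, a bar at each group's mean, 2 libraries per genotype). The *Srebf1* to *Srebf2* ratio is near 7.07 in both WT libraries and below 4 in both KO libraries, whereas the *Insig2* to *Insig1* ratio of KO replicate 1 (1.61) is just under that of WT replicate 2 (1.66).

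*Mylip* (ENSMUSG00000038175, chromosome 13, 45389742 to 45412022), which encodes IDOL, a ligase induced by the sterol-sensing nuclear receptor LXR, had 2.02 and 1.00 TPM in WT, against 1.81 and 3.81 TPM in KO. It was the least abundant of the members, with WT replicate 3 lowest and KO replicate 3 highest, as for *Insig2*. The log2 difference was 0.58 (standard error 0.38, 95% interval -0.37 to 1.53, adjusted p = 0.585 from limma), 0.28 without WT replicate 3 and 0.19 without KO replicate 3. Adding 0.1 in place of 1 before the logarithm gave 0.84, and adding 5 gave 0.25.

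*Stard4* (ENSMUSG00000024378), whose protein carries cholesterol between membranes and whose gene is a target of SREBP-2, had 11.7 and 17.9 TPM in WT, against 11.8 and 11.4 TPM in KO. In 3 libraries the level was nearly the same, and WT replicate 3 was above them. The log2 difference was -0.30 (standard error 0.25, 95% interval -0.93 to 0.33, adjusted p = 0.661 from limma), and it was -0.02 without WT replicate 3.

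**Figure D3:**
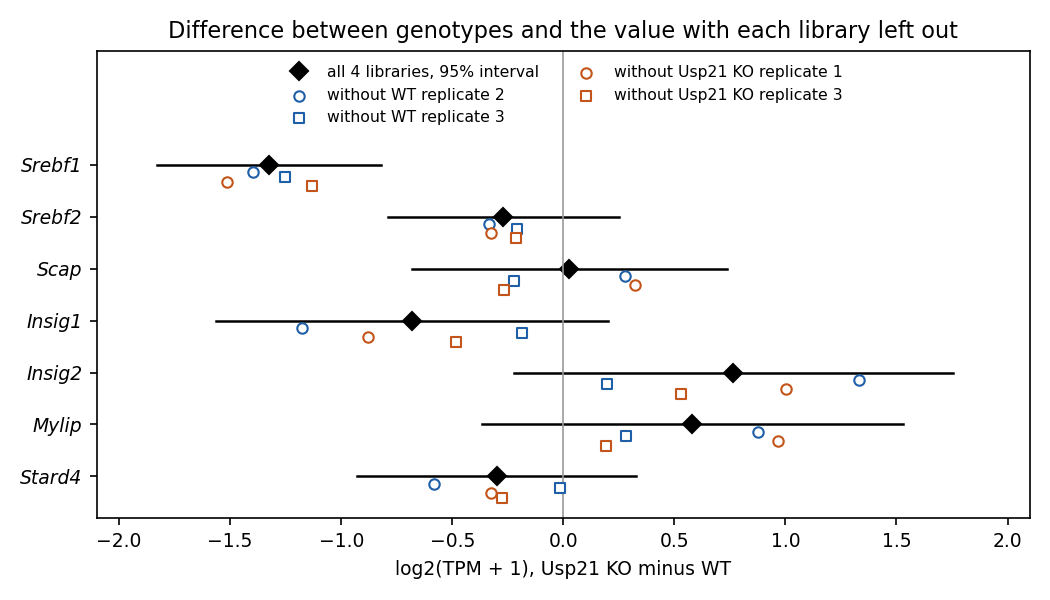
Difference between *Usp21* KO and WT in log2(TPM + 1) for each gene (black diamond, with the 95% interval of limma from 2 libraries per genotype) and the same difference with 1 library left out (open symbols). The interval of *Srebf1* (-1.83 to -0.82) lies below 0, and the intervals of the other 6 genes include 0.

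Of the 7 members, 4 were lower and 3 higher in KO by mean. Both KO libraries lay below both WT libraries for 2 members (28.6%), *Srebf1* and *Srebf2*, compared with 10.9% of all tested genes, and for 0 members both lay above, compared with 34.4% of all tested genes. A difference of at least 2-fold was found for *Srebf1* alone, on the lower side, where 1.1% of all tested genes lay, and for 0 members on the higher side (2.59% of all tested genes). An unadjusted p under 0.05 in limma was found for *Srebf1* alone (2.04% of all tested genes lower, 8.45% higher), and 0 members had an adjusted p under 0.05 in limma with or without moderation (0.0835% of all tested genes with moderation). With so few members these shares describe the 7 genes and no more. In the table of TMM-normalized CPM all 7 members were listed at 0 in every library, so edgeR and DESeq2 on that table could not test them.

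By level in WT, *Insig1* (101 ± 47.6 TPM), *Insig2* (80.9 ± 43.3 TPM) and *Srebf1* (61.2 ± 4.38 TPM) came first, and neighbours among these 3 overlapped. *Scap* (26.0 ± 6.57 TPM), *Stard4* (14.8 ± 4.34 TPM), *Srebf2* (8.65 ± 0.59 TPM) and *Mylip* (1.51 ± 0.72 TPM) followed, each with its libraries below those of the gene before it (SD, n = 2). In KO the order began with *Insig2* (129.8 ± 29.9 TPM) and *Insig1* (59.4 ± 11.7 TPM), whose libraries did not overlap. *Scap* (26.7 ± 7.86 TPM) and *Srebf1* (24.0 ± 4.66 TPM) overlapped there, and the order of the last 3 genes was that of WT.

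Other cells of the liver were checked with marker genes, since in bulk tissue fewer cells of a type and less RNA per cell cannot be told apart. The 5 cholangiocyte markers summed to 14.6 and 15.9 TPM in WT, against 37.9 and 24.5 TPM in KO, and the 8 stellate and fibroblast markers to 56.0 and 47.0 TPM in WT, against 87.1 and 65.1 TPM in KO. Both sums were higher in both KO libraries than in both WT libraries, as were 34.4% of all tested genes. Of the cholangiocyte markers, *Spp1* made up most of the sum (13.2 and 12.7 TPM in WT, 33.4 and 20.7 TPM in KO), and *Krt19* was also higher without overlap (0.196 and 0.263 TPM in WT, 0.998 and 1.28 TPM in KO). The other 3, *Sox9*, *Epcam* and *Krt7*, overlapped between genotypes. In the stellate and fibroblast sum, *Dcn* made up most (42.6 and 34.1 TPM in WT, 62.8 and 48.4 TPM in KO), and *Reln* and *Col1a2* were also higher without overlap. *Lrat*, *Des*, *Col1a1*, *Col3a1* and *Pdgfrb* overlapped between genotypes. The 10 macrophage markers summed to 220 and 258 TPM in WT, against 118 and 299 TPM in KO, and the 7 sinusoidal endothelial markers to 62.6 and 46.6 TPM in WT, against 52.2 and 72.3 TPM in KO. The 8 lymphocyte markers summed to between 3.35 and 3.78 TPM and the 5 red blood cell markers to between 719 and 911 TPM. No list had a marker at 0 in all libraries except the adipocyte list, where *Plin1* and *Lep* were. The part of these cells in the differences of the members was not tested.

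The genes that act around the members were taken from 8 lists with 123 entries, 118 of them tested. In limma 0 of the 118 had an adjusted p under 0.05, while 10 had an unadjusted p under 0.05 with a higher and 9 with a lower level in KO, or 8.47% and 7.63% beside 8.45% and 2.04% of all tested genes. The groups did not overlap for 41 genes on the higher side (34.7%, beside 34.4% of all tested genes) and 19 on the lower side (16.1%, beside 10.9%). By mean, 66.7% of all tested genes were higher and 33.3% lower in KO, and the counts of each list are to be read against these shares. The list of SREBP cleavage and escort holds proteases and coat proteins, and also other genes such as *Paqr3*, *Erlin1*, *Erlin2* and *Cideb*. Its median difference was 0.27 on the log2 scale, and 11 of its 17 genes were higher in KO, near the 66.7% of all tested genes. Of the 17, 7 were higher and 4 lower without overlap (34.4% and 10.9% of all tested genes), and 1 had an unadjusted p under 0.05 in limma. *Sec24b*, a cargo-binding subunit of the COPII coat, had 3.59 and 4.05 TPM in WT, against 8.03 and 4.39 TPM in KO, a difference of 0.53 (standard error 0.32, adjusted p = 0.552 from limma). *Spring1*, a cofactor of the site-1 protease, had the most negative difference of those without overlap (-0.30), with 1.47 and 1.01 TPM in WT, against 0.761 and 0.874 TPM in KO.

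The ubiquitin ligases and segregase subunits that degrade INSIG and the reductase had 8 of 11 genes higher in KO (66.7% of all tested genes) and a median difference of 0.24. Of the 11, 4 were higher without overlap, near the 34.4% of all tested genes, and 0 lower. *Syvn1*, the ligase HRD1 of the endoplasmic reticulum, had 12.3 and 10.2 TPM in WT, against 20.1 and 23.3 TPM in KO (difference 0.89, standard error 0.20, unadjusted p = 0.00561, adjusted p = 0.450 from limma). The list of partners and turnover factors of nuclear SREBP also holds the genes of LXR and of some other transcription factors. Of its 21 genes 19 were higher, 13 of them without overlap, where 66.7% of all tested genes were higher and 34.4% higher without overlap. The median of these genes was 0.29. *Lpin1*, whose product lipin-1 restrains nuclear SREBP, was at their upper end, with 10.3 and 23.1 TPM in WT, against 52.5 and 54.8 TPM in KO (difference 1.73, standard error 0.37, adjusted p = 0.432 from limma). The median of all tested genes, 0.15, lay on the same side as these 3 medians.

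The 20 sterol synthesis genes, targets of SREBP-2, had 19 genes lower in KO and 8 of them without overlap, where 33.3% of all tested genes were lower and 10.9% lower without overlap. An unadjusted p under 0.05 in limma was found for 7 of the 20 on the lower side and 0 on the higher (2.04% and 8.45% of all tested genes). None of the 20 had an adjusted p under 0.05 in limma. The median difference of the 20 genes was -0.63, compared with -0.27 for the *Srebf2* transcript itself. *Mvd*, which makes isopentenyl diphosphate, had 3.11 and 7.95 TPM in WT, against 1.01 and 1.09 TPM in KO (difference -1.56, standard error 0.41, adjusted p = 0.464 from limma). Leaving out WT replicate 3 brought the median of this list to -0.30, and leaving out KO replicate 3 to -0.16. The 13 tested fatty acid synthesis genes, targets of SREBP-1c, had a median of -0.04 beside the -1.32 of *Srebf1*, with 5 genes higher and 8 lower. Leaving out WT replicate 2 gave a median of -0.49, and leaving out WT replicate 3 gave 0.35. Of the 13, 1 was lower and 1 higher without overlap, where 10.9% and 34.4% of all tested genes were. The lower 1 was *Thrsp*, a lipogenic gene of liver, with 75.0 and 611 TPM in WT, against 51.9 and 36.7 TPM in KO. WT replicate 3 was again the library that stood apart. *Elovl5*, a fatty acid elongase, was the 1 gene higher without overlap, with 76.2 and 54.8 TPM in WT, against 185 and 79.4 TPM in KO.

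**Figure D4:**
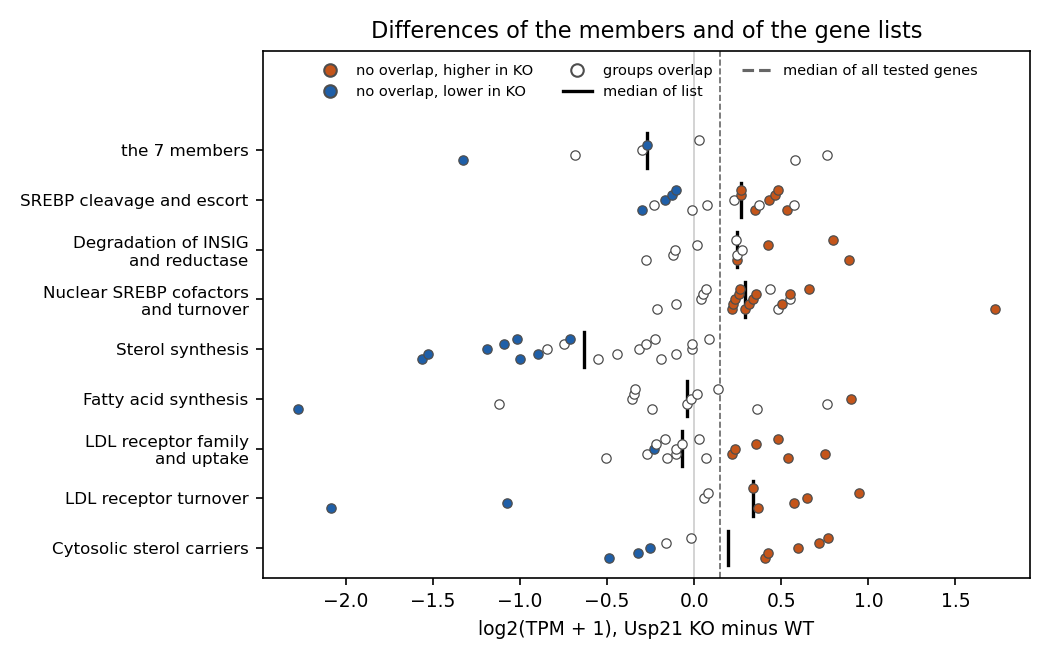
Difference between *Usp21* KO and WT in log2(TPM + 1) for the 7 members and for each tested gene of the 8 gene lists (1 point per gene, filled where the KO and WT libraries do not overlap, with a black bar at each median). The sterol synthesis genes lie mostly below 0 (median -0.63), and the dashed line marks the median of all tested genes (0.15).

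On the side of the LDL receptor, the 17 tested genes of its family and of uptake had 8 genes higher and 9 lower, with a median of -0.07. This median turned to 0.06 when WT replicate 2 was left out and to 0.12 when KO replicate 3 was. Of the 17, 6 were higher and 1 lower without overlap, where 34.4% and 10.9% of all tested genes were. *Zfp36l1*, an RNA-binding protein that acts on the mRNA of the receptor, had 22.0 and 28.8 TPM in WT, against 57.2 and 32.4 TPM in KO (difference 0.75, standard error 0.31, adjusted p = 0.478 from limma). *Dab2*, a clathrin adaptor, was the 1 gene lower without overlap, at 1.40 and 2.16 TPM in WT, against 1.34 and 1.36 TPM in KO. The 9 genes of receptor turnover had 7 higher and 2 lower, with a median of 0.34, and 5 were higher and 2 lower without overlap, where 34.4% and 10.9% of all tested genes were. *Usp2* (ENSMUSG00000032010), a deubiquitinase that acts on IDOL and whose transcript follows the circadian clock in liver, had 11.5 and 12.7 TPM in WT, against 1.81 and 2.37 TPM in KO. Its difference of -2.09 (standard error 0.23, unadjusted p = 0.000159, adjusted p = 0.101 from limma) had the lowest p in these lists. *Anxa2*, an annexin, had 3.29 and 3.03 TPM in WT, against 6.97 and 7.06 TPM in KO (difference 0.95, adjusted p = 0.453 from limma).

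The list named cytosolic sterol carriers was the one nearest to *Stard4* in function, though not all of its proteins are cytosolic or carry sterols. Its 10 tested genes had 5 higher and 5 lower, with a median of 0.19 that turned to -0.02 over genes averaging 5 TPM or more. Of the 10, 5 were higher and 3 lower without overlap, where 34.4% and 10.9% of all tested genes were. An unadjusted p under 0.05 in limma was found for 3 on the higher side and 0 on the lower (8.45% and 2.04% of all tested genes). *Gramd1a*, which moves cholesterol from the plasma membrane to the endoplasmic reticulum, had 1.63 and 2.90 TPM in WT, against 4.88 and 4.08 TPM in KO. Its paralog *Gramd1c* was at the other end, with 5.47 and 4.90 TPM in WT, against 3.85 and 3.01 TPM in KO. Neither passed in limma, with adjusted p of 0.469 and 0.512.

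For each member, the 118 list genes were ranked by the root mean square difference between profiles, each profile being log2(TPM + 1) over the 4 libraries with its own mean subtracted. With 4 points this is a description of these libraries only. Nearest to *Srebf1* was *Fdft1* (squalene synthase, distance 0.21), with 35.1 and 38.0 TPM in WT, against 22.5 and 16.3 TPM in KO. *Insig1* lay nearest to the sterol synthesis genes *Dhcr7* (0.15) and *Pmvk* (0.16). *Stard4* lay nearest to *Gpam*, which starts triglyceride synthesis (0.03), and no other tested gene was nearer. For the other members, other tested genes were nearer than the nearest list gene, from 5 for *Srebf2* to 171 for *Insig2*. *Srebf2* lay nearest to *Stard5* (0.03), *Scap* to *Rxra* (0.07) and *Mylip* to *Paqr3* (0.12). *Insig2* had no such close profile among the lists, and its nearest, *Sec24d*, was at 0.30.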

How the data were processed

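Liver RNA of 2 WT and 2 *Usp21* KO mice was sequenced on an Illumina MiSeq. The TPM values were estimated with Salmon and summed per gene by the authors, with the build given as mm10 in the submitters' processing notes. A deposited table of TMM-normalized CPM, a signal made from HTSeq counts scaled with edgeR, lists all 7 members at 0, as it does 428 of 682 abundant genes (100 TPM or more in each library), and was used only as an alternative. The deposited log2 versions of both tables were not needed. Versions and annotation release are not given in the sources used here. No columns of samples were left unused.

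The members, lists, ratios and choice of the TPM table were made with earlier results of these data known. Groups were compared with limma 3.58.1 (R 4.3.3, lmFit and eBayes with trend) on log2(TPM + 1), over 9581 genes averaging 1 TPM or more, with no covariate, two-sided, with Benjamini-Hochberg adjustment and a threshold of 0.05. The study names an ANOVA in Partek, without stating its factors. TPM keep no depth. In the CPM table low values were whole multiples of 1 read (100% within 0.02 reads), giving 102898 to 148164 recovered reads per library, on which edgeR 4.0.16 and DESeq2 1.42.0 were run over 5146 genes. Alternatives were other pseudocounts, filters and scaling, no moderation, the CPM table, and leaving out each library.

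Genes named beside the members were, in each list, those with the largest difference in each direction among genes whose groups did not overlap, and for each member the 2 list genes with the nearest profile. The cholangiocyte markers and the stellate and fibroblast markers were named after their values were seen. Some list genes are counted and not reported singly. Promoters came from RefSeq (GRCm38.p6) and gene positions from GENCODE on GRCm38. Figures were drawn with matplotlib 3.10.9.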

Additional observations from a re-analysis of the deposited data

How the results depend on the processing

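Of 69 values of the members under alternatives, 66 kept their direction and their side of the threshold and 3 reversed, all of them *Scap*, at -0.10 with upper quartile scaling, -0.22 without WT replicate 3 and -0.27 without KO replicate 3 (range with each library left out -0.27 to 0.32); the cause was not tested. The 8 genes with an adjusted p under 0.05 over all genes became 4 with no filter on low TPM (15061 genes above 0 in at least 1 library), 0 with no moderation, 1 with limma on TMM-normalized CPM, 12 with edgeR and 1 with DESeq2 on recovered reads, and 0 to 0 with each library left out, where fewer samples remain. Of 80 list medians 8 moved beyond the spread between libraries, the cytosolic sterol carriers turning to -0.02 at a mean of at least 5 TPM and the LDL receptor family and uptake to 0.12 without KO replicate 3. Other list medians changed sign within that spread. That of fatty acid synthesis turned to 0.35 without WT replicate 3 and 0.15 without KO replicate 3. The LDL receptor family and uptake turned to 0.06 without WT replicate 2. The ratio differences kept their sign in all 49 values, those of *Insig2* to *Insig1* ranging from 0.38 to 2.51 and of *Mylip* to *Stard4* from 0.30 to 1.46 with a library left out. Other filters and no moderation leave the difference of a member or ratio unchanged, so those values could not reverse. Upper quartile scaling hardly moves a ratio within a library. No paired analysis was possible because the genotypes share only replicate number 3. TPM carry no depth, so no counting error can be given for the members.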
